A study of Homo sapiens with 12 samples.

Results

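The genes described here are 33 genes of antigen presentation by major histocompatibility complex (MHC) class I and class II molecules. They were taken by gene symbol, and all 33 were found among the 26364 genes of the deposited count table. The list holds 14 class I genes, 14 class II genes and 5 regulators of their promoters, and all 33 passed the filter on low counts, as did 15087 genes of the whole table. Polyadenylated RNA was sequenced from JeKo-1 and Granta-519, both established human cell lines derived from mantle cell lymphoma, a cancer of B lymphocytes. Each line was exposed for 12 h to 4 µM chidamide, an inhibitor of histone deacetylases, or to vehicle alone. That makes 4 groups, with 3 libraries in each. The labels name no genetic change and no spike-in RNA, so every level below is relative to the rest of its library. In bulk RNA of this kind a change in the share of cells that express a gene and a change in RNA per cell cannot be told apart.

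Class I molecules carry peptides made in the cytosol to the cell surface, where CD8 T cells read them. A heavy chain pairs with beta-2 microglobulin in the endoplasmic reticulum, the TAP transporter brings in peptides, aminopeptidases trim them, and tapasin and chaperones help to load them. Class II molecules are pairs of an alpha and a beta chain that B cells and other professional presenting cells load in endosomes with peptides from material taken up from outside. The invariant chain CD74 blocks the groove until HLA-DM exchanges its last fragment for a peptide, a step that HLA-DO restrains in B cells. The RFX complex binds the X box of these promoters, and the coactivators CIITA, for class II, and NLRC5, for class I, act through it.

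The library totals ran from 12873642 to 16592694 counts. B-cell markers were high in every library, with a summed level of 2778 to 3082 CPM (counts scaled by library size) in the libraries labelled JeKo-1 and 3312 to 4152 CPM in Granta-519. The mantle cell lymphoma markers SOX11 and CCND1 went against the first label. SOX11 had 0 counts in all 6 libraries labelled JeKo-1, and CCND1 had 5 counts over the 3 vehicle libraries, against 97605 counts over the Granta-519 vehicle libraries. The libraries under the first label are therefore called the libraries labelled JeKo-1 throughout. CD5, the other marker of this lymphoma that was followed, was low in vehicle in both lines, at 0.15 CPM under the JeKo-1 label and 1.06 CPM in Granta-519. Summed markers of myeloid and dendritic cells moved with treatment, from 1.35 to 1.74 CPM in vehicle to 18.9 to 20.5 CPM in chidamide under the JeKo-1 label and from 15.9 to 17.3 CPM to 90.4 to 92.8 CPM in Granta-519. In the chidamide libraries most of this sum came from CSF1R, CD1C and LYZ under the JeKo-1 label and from CD1C, ITGAX and CSF1R in Granta-519. LYZ, a myeloid marker, rose from 0.33 to 3.46 CPM under the JeKo-1 label and averaged 0.04 and 0.09 CPM in Granta-519. S100A8, S100A9 and MPO averaged at most 0.31 CPM in each group. The part of these markers in the results below was not tested. Markers of T and NK cells summed to at most 8.09 CPM in any library.

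With chidamide most class II genes rose in both lines, whereas class I genes moved in both directions. Under the JeKo-1 label, 13 of 14 class II genes rose and 1 fell, with a median log2 change of 0.47, whereas 5 of 14 class I genes rose, 4 fell and 5 did not pass the test, with a median of 0.03. In Granta-519, 12 class II genes rose and 2 fell, with a median of 0.70, whereas 7 class I genes rose and 6 fell, with a median of 0.02. A gene was called changed when its Benjamini-Hochberg adjusted p in edgeR's quasi-likelihood test was below 0.05 over the 15087 genes tested. Changes were common by this rule: under the JeKo-1 label 66.4% of all tested genes were called, 35.3% higher and 31.1% lower, and in Granta-519 70.9% were called, 39.6% higher and 31.3% lower. The treated libraries lay wholly above the vehicle libraries for 20 of the 33 genes and wholly below for 7 under the JeKo-1 label, against 35.2% and 31.4% of all tested genes. In Granta-519 they did so for 21 and 9 of the 33, against 41.3% and 32.5%. Among the 7668 genes at or above the lowest mean level of the 33 genes, 78.4% were called under the JeKo-1 label, 27.6% higher and 50.9% lower, and 77.8% in Granta-519, 30.4% higher and 47.4% lower, with median log2 changes of -0.15 and -0.10. The share of class I genes called higher was close to that of the whole table under the JeKo-1 label and somewhat above it in Granta-519, while the share of class II genes lay far above it in both. The 2 classes overlapped in size, with log2 changes of -0.40 to 0.65 for class I and -0.68 to 0.91 for class II under the JeKo-1 label and of -0.59 to 0.69 and -0.47 to 1.12 in Granta-519, and no test set one class against the other. Upper-quartile scaling gave class I and class II medians of 0.18 and 0.62 under the JeKo-1 label and 0.12 and 0.79 in Granta-519. The class II count under the JeKo-1 label was 12 or 13 higher in every alternative fit, and in Granta-519 it was 11 or 12. Of the 5 regulators, 2 rose in each line, 2 fell under the JeKo-1 label and 1 fell in Granta-519. The labels do not say whether replicates were separate cultures, so the p-values cover only the scatter among these libraries, part of which could be technical.

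**Figure D1:**
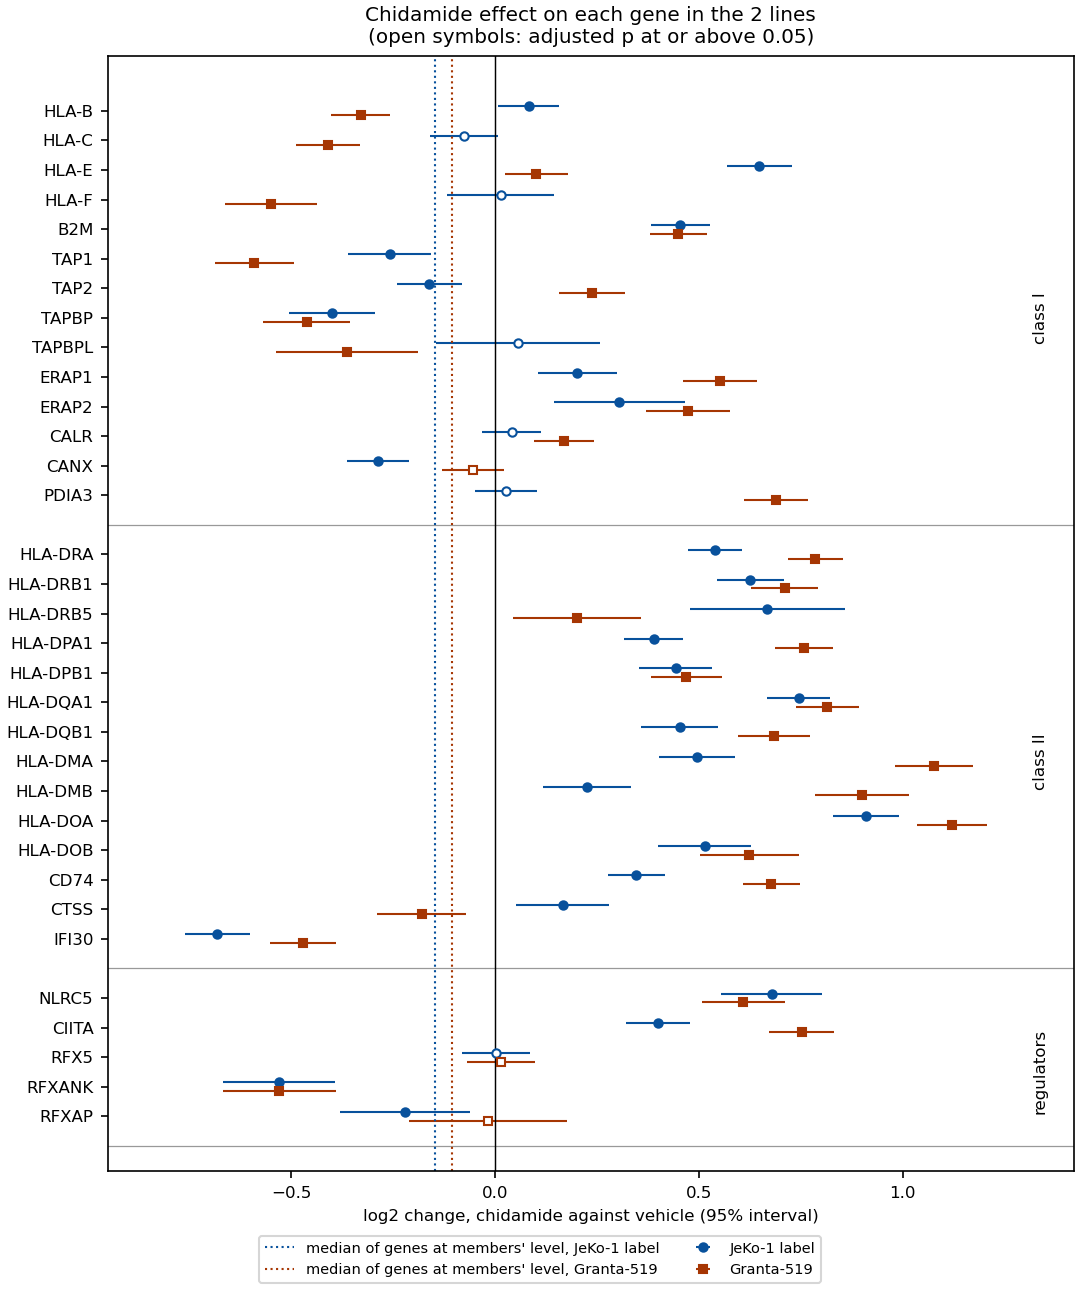
Log2 change of each of the 33 genes (x axis, chidamide against vehicle, with 95% intervals) in the libraries labelled JeKo-1 (circles) and in Granta-519 (squares), with filled symbols for adjusted p below 0.05 and dotted lines at the median of the 7668 genes of similar level. The class II chains, HLA-DM, HLA-DO and CD74 all lie to the right of 0 in both lines, whereas the class I genes lie on both sides.

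The genes of the classical class II chains, which bind the peptide, rose in both lines without exception: 7 of 7 passed the test in each. HLA-DRA encodes the alpha chain shared by all HLA-DR molecules and had the highest level per length of these chains. Its level was 1813, 1811 and 1743 CPM in the vehicle libraries labelled JeKo-1 and 2623, 2632 and 2546 CPM in the chidamide libraries, a log2 change of 0.54 (SE 0.0335). Granta-519 libraries went from 1546, 1573 and 1536 CPM to 2683, 2724 and 2619 CPM, a log2 change of 0.79 (SE 0.0336). The treated libraries lay above the vehicle libraries in both lines, and the 2 lines ended at nearly the same level, 2600.4 ± 47.5 and 2675 ± 52.6 CPM (SD, n = 3 libraries, as for all values given with ±).

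HLA-DRB1 and HLA-DRB5 encode HLA-DR beta chains and are near-identical in sequence, so reads may have been shared between them by the authors' counting. HLA-DRB1 was at 467, 419 and 468 CPM in vehicle and 680.2, 731 and 679.7 CPM in chidamide under the JeKo-1 label, a log2 change of 0.63 (SE 0.041). Granta-519 had 570.5, 568 and 551 CPM and then 946, 944 and 876 CPM, a log2 change of 0.71 (SE 0.0405). Its groups did not overlap in either line. HLA-DRB5 was at 60.2, 43.3 and 60.1 CPM in vehicle and 79.8, 92.9 and 87.7 CPM in chidamide under the JeKo-1 label, a log2 change of 0.67 (SE 0.0901). In Granta-519, where it was more abundant, it moved least of the chains, from 251, 245 and 235 CPM to 289, 284 and 267 CPM. That log2 change of 0.20 (SE 0.0741) had an adjusted p of 0.0218 in edgeR's quasi-likelihood test. The call was lost without chidamide replicate 1 (adjusted p = 0.0609), vehicle replicate 2 (0.0529) or vehicle replicate 3 (0.109) of Granta-519, with the length-scaled score (0.119) and without the count filter, where the log2 change was 0.093 (0.0825).

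The HLA-DQ and HLA-DP chains followed the same direction. HLA-DQA1, the HLA-DQ alpha chain, was at 257, 253 and 253 CPM in vehicle and 421, 436 and 424 CPM in chidamide under the JeKo-1 label, a log2 change of 0.75 (SE 0.0388). The Granta-519 values were 247, 247 and 241 CPM and then 439, 436 and 418 CPM, a log2 change of 0.82 (SE 0.0387). The 2 lines thus gave almost the same values before and after treatment for this gene. Its partner HLA-DQB1 rose from 122 ± 7.18 to 167 ± 4.18 CPM and from 208 ± 5.31 to 335 ± 17.2 CPM. HLA-DPA1 rose from 569 ± 21.9 to 746 ± 15.4 CPM under the JeKo-1 label and from 833 ± 2.27 to 1408 ± 16.0 CPM in Granta-519. HLA-DPB1 rose from 163 ± 6.44 to 221 ± 6.26 CPM and from 208 ± 6.09 to 288 ± 16.3 CPM. HLA-DPA1 and HLA-DPB1 overlap in the genome, and the strand setting of the counting has not been given in the sources used here, so these 2 genes could share reads.

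**Figure D2:**
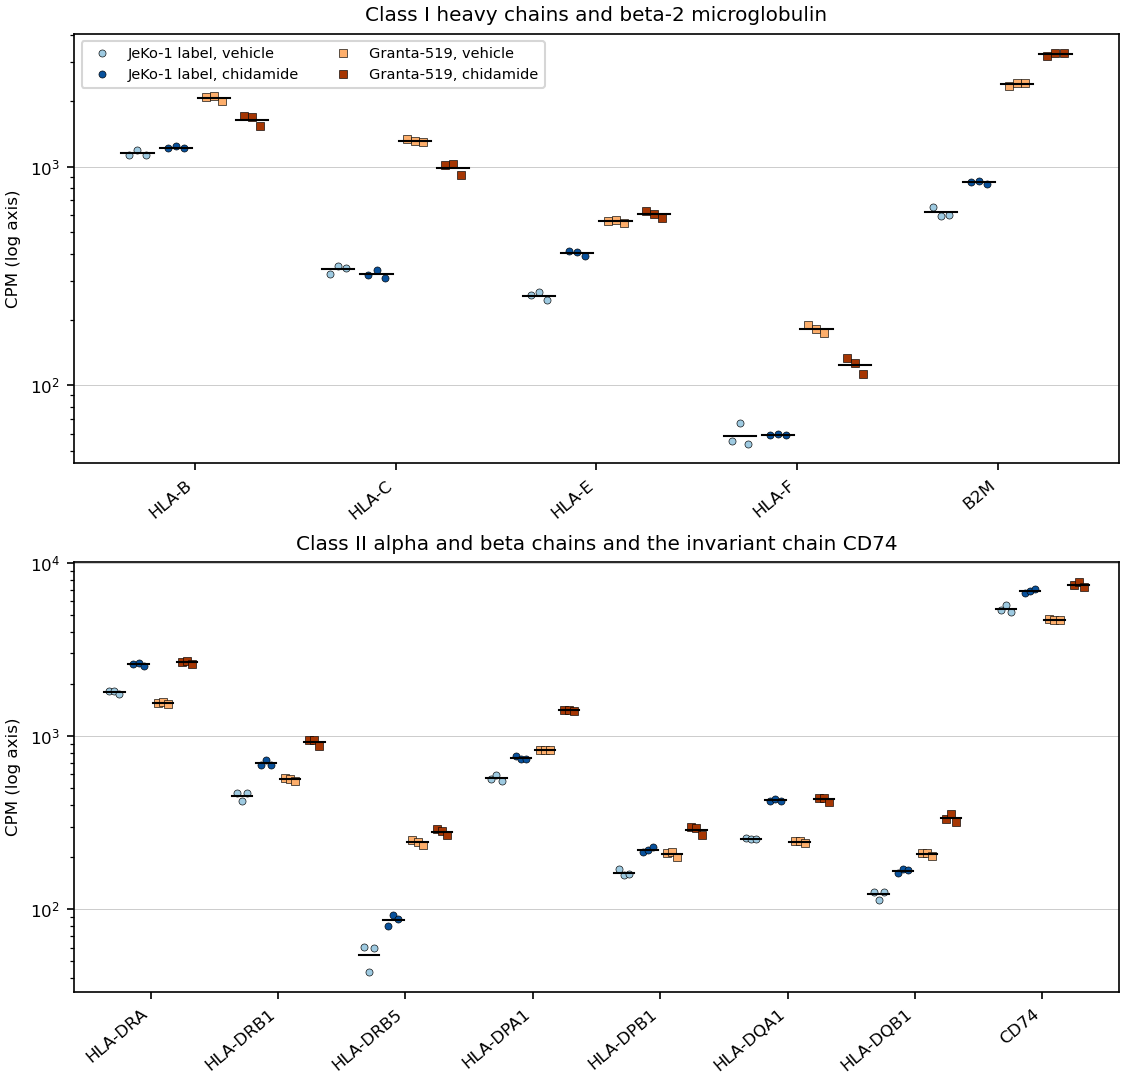
Level of each chain gene in every library (y axis, CPM on a log axis; symbols are single libraries, horizontal bars are group means of 3 libraries), with class I heavy chains and beta-2 microglobulin above and class II chains with CD74 below. Every class II chain and CD74 sits higher in the chidamide libraries of its line, and HLA-B, HLA-C and HLA-F sit lower in the chidamide libraries of Granta-519.

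The promoters of HLA-DRB1, HLA-DRB5 and HLA-DOA hold letters of the X and Y boxes that the RFX complex and NF-Y are known to bind. That of HLA-DMB shares a run of letters with HLA-DRB1 and HLA-DRB5. These 4 class II promoters are shown for these letters and because their genes rose in both lines. Each is the stretch from 150 to 31 bases before the gene's start in RefSeq, build GRCh38.p14, on the gene's strand: chr6:32589879-32589998 (minus strand) for HLA-DRB1, chr6:32530318-32530437 (minus) for HLA-DRB5, chr6:33009622-33009741 (minus) for HLA-DOA and chr6:32941059-32941178 (minus) for HLA-DMB. Capitals mark AGCAAC, core letters of the X box. They also mark AACTGATGAT, the run shared by HLA-DRB1, HLA-DRB5 and HLA-DMB, which was chosen after reading them and is not a known box. TGACG, the core letters of the X2 box, is in capitals as well. In HLA-DMB it stands upstream of the shared run, whereas X2 usually follows the X box, so it may not be an X2 box there. The Y box, which reads CCAAT on the opposite strand, is marked by capitals at ATTGG where a stretch holds it. The HLA-DMB stretch holds no exact match to AGCAAC or ATTGG, and near matches were not searched.
HLA-DRB1: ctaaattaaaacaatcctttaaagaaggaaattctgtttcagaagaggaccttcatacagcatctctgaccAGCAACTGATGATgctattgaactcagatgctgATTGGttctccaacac
HLA-DRB5: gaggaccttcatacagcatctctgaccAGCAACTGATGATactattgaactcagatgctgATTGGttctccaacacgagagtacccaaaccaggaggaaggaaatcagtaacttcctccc
HLA-DOA: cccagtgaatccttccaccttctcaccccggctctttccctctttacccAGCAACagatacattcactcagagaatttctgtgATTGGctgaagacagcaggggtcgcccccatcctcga
HLA-DMB: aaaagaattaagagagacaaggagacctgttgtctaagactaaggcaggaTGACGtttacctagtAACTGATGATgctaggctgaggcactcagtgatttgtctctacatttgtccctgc

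RefSeq promoters of 300 bases (250 before to 50 after the start) were given for 27 of the 33 genes, and HLA-E, PDIA3, HLA-DRA, CTSS, NLRC5 and CIITA were not among them. Searched on both strands, AGCAAC stood in 5 of the 12 class II promoters given, those of HLA-DMA, HLA-DOA, HLA-DPA1, HLA-DRB1 and HLA-DRB5, in 1 of the 12 class I promoters and in 2 of the 3 regulator promoters, those of RFX5 and RFXANK, against 12.849% of all 35116 promoters. The longer AGCAACAG stood in those of HLA-DOA and HLA-DPA1 and in 1.723% of all. CCAAT stood in 11 of the 12 class II and 8 of the 12 class I promoters, against 34.614% of all. AACTGATGAT, the longest run of letters that HLA-DRB1, HLA-DRB5 and HLA-DMB share and therefore chosen after reading them, stood in 19 promoters of the whole table (0.054%), these 3 among them. It overlaps AGCAAC in HLA-DRB1 and HLA-DRB5. AGCAAC followed on the same strand by ATTGG, with first bases 33 to 34 apart, a spacing also chosen after reading them, stood in 10 promoters (0.0285%), HLA-DRB1, HLA-DRB5 and HLA-DOA among them. HLA-DRB1 and HLA-DRB5, which may share reads, had log2 changes of 0.71 and 0.20 in Granta-519, and the part of these letters in them was not tested. These matches are letters in a reference and were not measured in the libraries.

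The genes that load class II molecules in endosomes rose more unevenly. HLA-DMA and HLA-DMB encode the peptide exchanger HLA-DM, and HLA-DOA and HLA-DOB encode its inhibitor HLA-DO. HLA-DMA was at 168, 176 and 162 CPM in vehicle and 235, 244 and 235 CPM in chidamide under the JeKo-1 label, a log2 change of 0.50 (SE 0.0463). In Granta-519 it was at 102, 105 and 97.2 CPM and then 224, 218 and 199 CPM, a log2 change of 1.08 (SE 0.048). HLA-DMB followed the same order, with log2 changes of 0.23 (SE 0.0541) and 0.90 (SE 0.0571). HLA-DOA had the largest log2 change of the 33 genes in each line. It was at 223, 235 and 219 CPM in vehicle and 431, 420.1 and 422 CPM in chidamide under the JeKo-1 label, a log2 change of 0.91 (SE 0.0408). The same gene in Granta-519 was at 128, 124 and 123 CPM and then 282, 262 and 271 CPM, a log2 change of 1.12 (SE 0.0427). All 4 genes had treated libraries above the vehicle libraries in both lines, HLA-DOB by log2 changes of 0.51 (SE 0.0566) and 0.62 (SE 0.0603).

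CD74, the invariant chain, was the most abundant of the 33 genes per length in every group, at 4778 ± 46.5 to 7641 ± 277 CPM per kilobase. It rose from 5312, 5746 and 5189 CPM to 6722, 6911 and 7020.3 CPM under the JeKo-1 label, a log2 change of 0.35 (SE 0.0348). In Granta-519 it rose from 4739, 4670.0 and 4653 CPM to 7437, 7791 and 7258 CPM, a log2 change of 0.68 (SE 0.0349). IFI30, the lysosomal thiol reductase GILT that opens disulfide bonds of antigens, went the other way in both lines. It fell from 706, 776 and 721 CPM to 440.3, 465 and 468 CPM under the JeKo-1 label, a log2 change of -0.68 (SE 0.0397), and from 412 ± 14.3 to 297 ± 8.17 CPM in Granta-519, a log2 change of -0.47 (SE 0.0407). CTSS, the protease cathepsin S that trims CD74, changed little and in opposite directions, from 69.2 ± 5.02 to 77.6 ± 0.959 CPM and from 99.99 ± 4.43 to 88.3 ± 2.83 CPM. Its log2 change of 0.17 under the JeKo-1 label (adjusted p = 0.00915 in edgeR's quasi-likelihood test) was not called without vehicle replicate 2 (0.12, adjusted p = 0.0746). Its log2 change of -0.18 in Granta-519 (adjusted p = 0.00286) was not called under upper-quartile scaling (-0.08, adjusted p = 0.162).

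Among the class I genes, the partner chain B2M rose in both lines, whereas 2 of the 4 heavy chains rose under the JeKo-1 label, and 1 rose and 3 fell in Granta-519. B2M encodes beta-2 microglobulin. It was at 654, 597 and 601 CPM in vehicle and 852, 856 and 830.2 CPM in chidamide under the JeKo-1 label, and at 2346, 2408 and 2414 CPM and then 3208, 3288 and 3293 CPM in Granta-519. The log2 change was 0.45 in each line (SE 0.036 and 0.035), and no group overlapped another. HLA-B and HLA-C encode classical heavy chains. HLA-B was at 1135, 1194 and 1135 CPM in vehicle and 1214, 1236 and 1217 CPM in chidamide under the JeKo-1 label. That log2 change of 0.08 (SE 0.0368) had an adjusted p of 0.0457 in edgeR's quasi-likelihood test and was lost without chidamide replicate 2, vehicle replicate 1 or vehicle replicate 3 of that label or any 1 vehicle library of Granta-519 (adjusted p = 0.0549 to 0.141). In Granta-519 HLA-B fell from 2079, 2104 and 1995 CPM to 1697, 1684 and 1532 CPM, a log2 change of -0.33 (SE 0.0365). HLA-C fell from 1333, 1309.7 and 1290.4 CPM to 1015, 1025 and 918 CPM in Granta-519, a log2 change of -0.41 (SE 0.0392). Under the JeKo-1 label its groups overlapped, at 339 ± 14.1 and 321 ± 13.3 CPM. The HLA heavy-chain genes resemble each other closely and their counts are uncertain to that degree.

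HLA-E and HLA-F encode non-classical heavy chains. HLA-E, which presents leader peptides of other class I chains to NK cell receptors, was at 258, 267 and 246 CPM in vehicle and 410.4, 408 and 391 CPM in chidamide under the JeKo-1 label. Its log2 change there of 0.65 (SE 0.0401) was the largest of the class I genes in that line. In Granta-519 the values were 566, 573 and 550.3 CPM and then 623, 609 and 580.0 CPM, a log2 change of 0.10 (SE 0.0385). The rise in Granta-519 had an adjusted p of 0.0171 in edgeR's quasi-likelihood test. It was lost without chidamide replicate 1 (0.051) or vehicle replicate 3 (0.0935) of Granta-519 and in a fit of the 6 Granta-519 libraries alone (0.438), and the log2 change was -0.01 when genes with few counts were kept in the scaling. HLA-F fell from 189, 182 and 174 CPM to 134, 126 and 113 CPM in Granta-519, a log2 change of -0.55 (SE 0.0562), and its groups overlapped under the JeKo-1 label, at 59.0 ± 7.14 and 59.6 ± 0.384 CPM.

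The promoters of 3 class I genes are shown because B2M rose in both lines while HLA-B and HLA-C fell in Granta-519. They come from RefSeq, build GRCh38.p14, over the same stretch before the start: chr6:31357210-31357329 (minus strand) for HLA-B, chr6:31272123-31272242 (minus) for HLA-C and chr15:44711367-44711486 (plus) for B2M. Capitals mark TGACG and ATTGG.
HLA-B: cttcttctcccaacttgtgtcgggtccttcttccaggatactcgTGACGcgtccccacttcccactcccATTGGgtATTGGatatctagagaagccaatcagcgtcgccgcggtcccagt
HLA-C: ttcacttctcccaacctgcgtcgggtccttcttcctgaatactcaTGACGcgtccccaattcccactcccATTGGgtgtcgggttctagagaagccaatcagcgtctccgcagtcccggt
B2M: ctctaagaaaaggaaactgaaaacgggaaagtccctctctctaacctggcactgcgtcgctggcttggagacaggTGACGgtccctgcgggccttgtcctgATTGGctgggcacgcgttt

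TGACG stood in 5 of the 12 class I and 5 of the 12 class II promoters given, against 24.553% of all promoters on either strand. TGACG followed on the same strand by ATTGG with first bases 25 to 26 apart, a spacing chosen after reading the letters, stood in 53 promoters (0.151%), those of HLA-B, HLA-C and B2M among them. The promoters of HLA-B, HLA-C and B2M were shown because their genes moved in opposite directions in Granta-519. The part of these letters in those changes was not tested.

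The genes that supply and trim class I peptides did not move as one. Both aminopeptidases of the endoplasmic reticulum rose in both lines. ERAP1 rose from 127, 123 and 113 CPM to 137, 142 and 139.5 CPM under the JeKo-1 label and from 159.8, 169 and 171 CPM to 239.9, 252 and 241 CPM in Granta-519, log2 changes of 0.20 (SE 0.0481) and 0.55 (SE 0.0455). ERAP2 rose from 20.2 ± 2.47 to 25.05 ± 1.116 CPM and from 145 ± 7.0 to 201 ± 9.28 CPM, log2 changes of 0.30 (SE 0.0799) and 0.47 (SE 0.0516). ERAP1 and ERAP2 overlap each other in the annotation and could share reads. TAP1, the first subunit of the peptide transporter, fell in both lines. It was at 128, 138 and 124 CPM in vehicle and 108, 112 and 106 CPM in chidamide under the JeKo-1 label, and at 211, 215 and 216 CPM and then 154, 140.1 and 132 CPM in Granta-519, log2 changes of -0.26 (SE 0.051) and -0.59 (SE 0.0485). The first was -0.11 and not called with the length-scaled score, and TAP1 overlaps PSMB8-AS1. TAP2, the other subunit, went from 333 ± 8.94 to 298 ± 4.47 CPM under the JeKo-1 label and from 225 ± 7.02 to 265 ± 5.23 CPM in Granta-519. Its log2 change of 0.24 (SE 0.0404) was a rise in Granta-519. Its log2 change of -0.16 (SE 0.0397) under the JeKo-1 label was called a fall with TMM scaling, and under upper-quartile or library-size scaling it was -0.02 or -0.03 and not called.

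Of the loading factors, TAPBP, which encodes tapasin, fell in both lines, from 199 ± 5.01 to 151 ± 7.35 CPM and from 190.0 ± 19.4 to 138 ± 6.66 CPM. These log2 changes were -0.40 (SE 0.0524) and -0.46 (SE 0.0526). TAPBPL, the tapasin relative TAPBPR, was per length the least abundant of the class I genes in both Granta-519 groups and fell in that line, from 30.0 ± 1.44 to 23.3 ± 0.778 CPM. It overlaps CD27 and VAMP1, which together held more counts than it did. PDIA3, the disulfide isomerase of the loading complex, rose in Granta-519, from 267, 256 and 273 CPM to 421, 428 and 435 CPM, a log2 change of 0.69 (SE 0.039). Under the JeKo-1 label the vehicle libraries were at 461 ± 15.1 CPM and the chidamide libraries at 469.9 ± 7.05 CPM, and the difference did not pass the test. PDIA3 overlaps ELL3 (10259 counts against 71288) and TAPBP overlaps RGL2 (5302 against 29753), so each pair could share reads. CALR, the chaperone calreticulin, rose in Granta-519 from 888 ± 41.3 to 998 ± 23.0 CPM and did not pass under the JeKo-1 label, at 1011 ± 18.0 and 1040.2 ± 16.0 CPM. CANX, the chaperone calnexin, fell under the JeKo-1 label from 828 ± 32.4 to 678 ± 14.0 CPM and did not pass in Granta-519, at 785 ± 17.6 and 756 ± 32.6 CPM. With upper-quartile or library-size scaling HLA-F, CALR and PDIA3 were also called higher under the JeKo-1 label, by 0.145 to 0.187 on the log2 scale. Without the count filter the change of CALR in Granta-519 was 0.061 and not called.

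Both coactivator genes rose in both lines, while the subunits of the RFX complex did not. CIITA, the class II coactivator, was at 347, 356 and 349 CPM in vehicle and 472, 466 and 450.2 CPM in chidamide under the JeKo-1 label, a log2 change of 0.40 (SE 0.0391). In Granta-519 it was at 268, 262 and 254 CPM and then 455, 445 and 420.4 CPM, a log2 change of 0.75 (SE 0.0396). NLRC5, the class I coactivator, was at 43.0, 48.7 and 46.8 CPM in vehicle and 67.9, 71.6 and 81.9 CPM in chidamide under the JeKo-1 label, a log2 change of 0.68 (SE 0.0621). In Granta-519 it was at 185, 179 and 165 CPM and then 275, 268 and 264 CPM, a log2 change of 0.61 (SE 0.0503). The treated libraries lay above the vehicle libraries for both genes in both lines. A link between either coactivator and the changes of the class I or class II genes was not tested. RFXANK, a subunit of the complex, fell by 0.53 on the log2 scale in each line (SE 0.0683 and 0.0692), from 53.6 ± 2.57 to 37.2 ± 1.41 CPM and from 49.1 ± 2.50 to 34.01 ± 1.43 CPM. RFX5, the DNA-binding subunit, was at 216 ± 4.56 and 216 ± 4.17 CPM under the JeKo-1 label and at 233 ± 3.68 and 236 ± 8.93 CPM in Granta-519. The 95% intervals of its log2 changes, -0.08 to 0.09 and -0.07 to 0.10, contained 0, whereas under upper-quartile scaling the changes were 0.15 and 0.11 and were called higher. RFXAP, the last subunit, had overlapping groups in Granta-519. Under the JeKo-1 label its log2 change was -0.22 (SE 0.0793), with an adjusted p of 0.0122 in edgeR's quasi-likelihood test that became 0.0604, 0.0793 or 0.0693 without chidamide replicate 1, vehicle replicate 1 or vehicle replicate 3 and 0.0519 in DESeq2. CIITA overlaps DEXI and RFXANK overlaps NR2C2AP, so each pair could share reads.

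**Figure D3:**
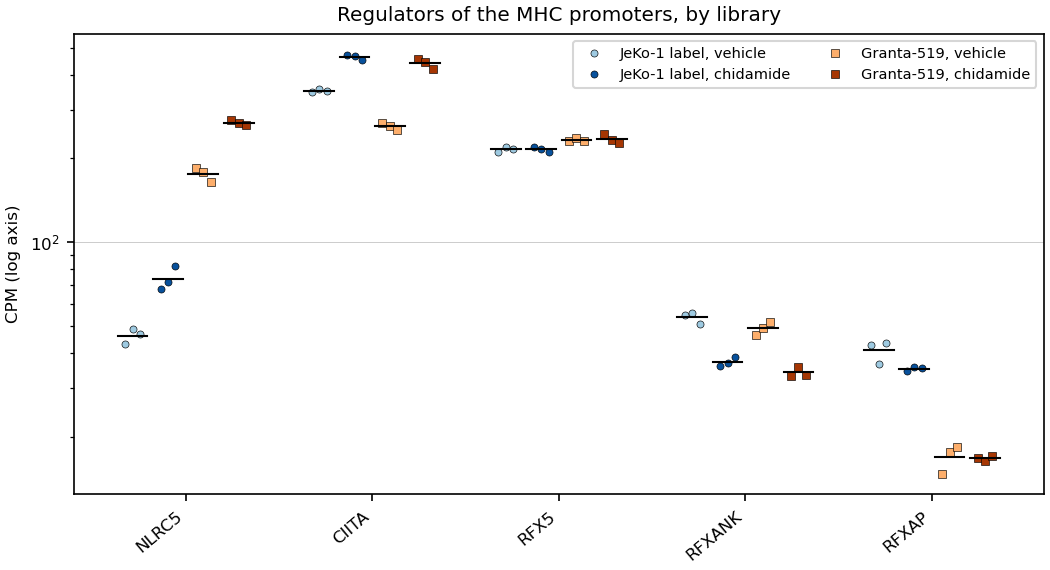
Level of the 5 regulator genes in every library (y axis, CPM on a log axis; symbols are single libraries, horizontal bars are group means of 3 libraries). CIITA and NLRC5 are higher and RFXANK is lower in the chidamide libraries of both lines, and NLRC5 starts at 46.2 CPM under the JeKo-1 label against 176 CPM in Granta-519.

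Ratios of summed CPM within a library do not depend on how libraries are scaled and were taken as descriptions without a test. The summed class II chains per summed class I heavy chains (HLA-B, HLA-C, HLA-E and HLA-F) were 1.95, 1.81 and 1.89 in the vehicle libraries labelled JeKo-1 and 2.47, 2.46 and 2.46 in the chidamide libraries. In Granta-519 the ratio was 0.928, 0.934 and 0.948 in vehicle and 1.85, 1.87 and 1.96 in chidamide. Granta-519 thus began with slightly fewer class II than class I counts and ended near the vehicle value of the other line. The class I heavy chains per B2M were lower in every treated library than in the vehicle libraries of its line, at 2.94 ± 0.22 and 2.37 ± 0.0172 under the JeKo-1 label and at 1.72 ± 0.058 and 1.03 ± 0.0657 in Granta-519. The ratio of HLA-DO to HLA-DM counts was 1.01 in vehicle in both lines (SD 0.0376 and 0.0224). In chidamide it was 1.37, 1.33 and 1.39 under the JeKo-1 label, all above the vehicle libraries, and 0.992, 0.966 and 1.06 in Granta-519, where the groups overlapped. HLA-DRB5 per HLA-DRB1 was 0.12 ± 0.0145 and 0.124 ± 0.0063 under the JeKo-1 label, with overlapping groups. In Granta-519 it was 0.44, 0.431 and 0.426 in vehicle and 0.306, 0.301 and 0.305 in chidamide.

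**Figure D4:**
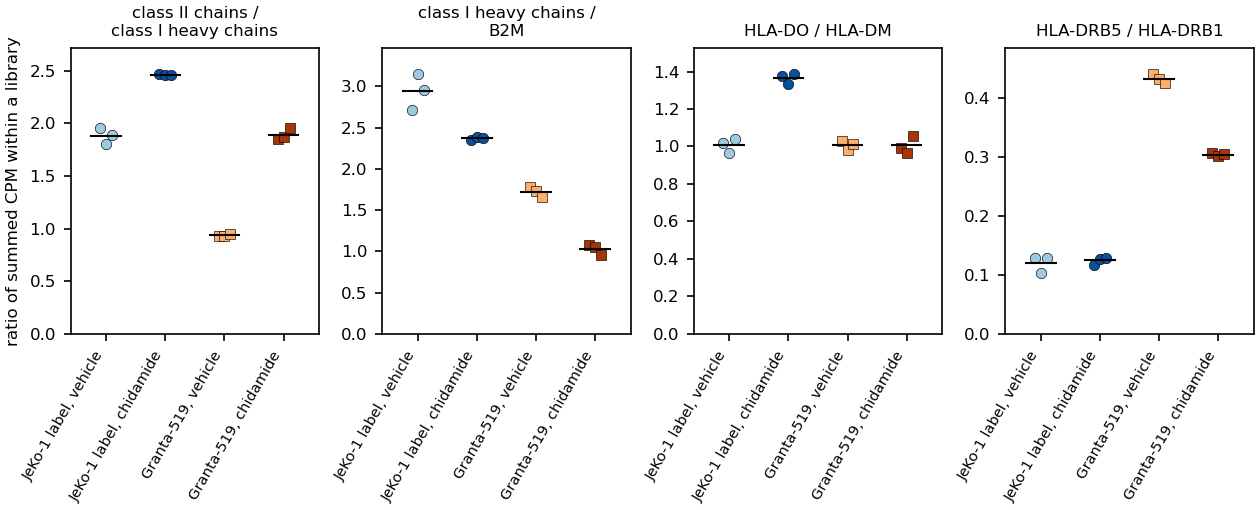
Ratios of summed CPM within each library (y axes from 0; symbols are single libraries, horizontal bars are means of 3), from left to right class II chains per class I heavy chains, class I heavy chains per B2M, HLA-DO per HLA-DM and HLA-DRB5 per HLA-DRB1. The first ratio is higher and the second is lower in the chidamide libraries of both lines, the third separates treated from vehicle libraries under the JeKo-1 label and the fourth in Granta-519.

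The size of the chidamide effect differed between the lines for 22 of the 33 genes. In this comparison, the effect under the JeKo-1 label minus that in Granta-519, 39.5% of all tested genes were called, 20% higher and 19.5% lower, and 52.5% of the genes of similar level, 22.3% higher and 30.2% lower. Of the class I genes 6 were higher and 5 lower in the difference, and of the class II genes 2 were higher and 8 lower. The heavy chains HLA-B (0.41, SE 0.0519), HLA-C (0.33, SE 0.057), HLA-E (0.55, SE 0.0555) and HLA-F (0.56, SE 0.0864) all had the higher log2 change under the JeKo-1 label. HLA-DMA (-0.58, SE 0.0666), HLA-DMB (-0.67, SE 0.0787), HLA-DPA1 (-0.37, SE 0.0506), CD74 (-0.33, SE 0.0491) and CIITA (-0.35, SE 0.0555) had the lower one. PDIA3 (-0.66, SE 0.0546) and TAP2 (-0.40, SE 0.0566) also differed. Among the genes whose difference did not pass were B2M, at 0.01 with a 95% interval of -0.10 to 0.11, HLA-DQA1, at -0.07 (-0.18 to 0.04), and RFXANK, at 0.00 (-0.21 to 0.21). With library-size scaling 70.0% of the calls in all genes were higher, against 50.6% with TMM, and the class II genes with a lower effect under the JeKo-1 label were these 5: HLA-DMA, HLA-DMB, HLA-DPA1, HLA-DRA and CD74.

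In vehicle the lines differed in both classes, and the class I differences mostly went one way. In vehicle, 9 class I genes were lower and 3 higher under the JeKo-1 label than in Granta-519, with a median log2 difference of -0.78. Of the class II genes 7 were higher and 6 lower, with a median of 0.13 that was -0.01 under library-size scaling. In this comparison 79.8% of all tested genes were called, 35.5% higher and 44.3% lower, and 85.6% of the genes of similar level, 48.6% higher and 36.9% lower. The libraries labelled JeKo-1 lay wholly above those of Granta-519 for 13 of the 33 genes and wholly below for 17, against 35.3% and 44.2% of all tested genes. The median log2 difference of all genes was -0.13. ERAP2 (-2.83, SE 0.0666), HLA-C (-1.95, SE 0.0414), B2M (-1.95, SE 0.0367), NLRC5 (-1.94, SE 0.0586), HLA-F (-1.62, SE 0.0609) and HLA-E (-1.13, SE 0.04) were lower under the JeKo-1 label. HLA-DRB5 (-2.16, SE 0.0854) was the class II gene with the largest difference. Higher under the JeKo-1 label were both HLA-DM genes (0.73 and 0.88), both HLA-DO genes (0.85 and 0.60), IFI30 (0.83), CIITA (0.43), PDIA3 (0.80), TAP2 (0.57) and RFXAP (1.28). HLA-DQA1 did not pass the test, at 0.06 (-0.02 to 0.14). These vehicle libraries are the same ones used for the chidamide effects, so the comparisons share samples.

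**Figure D5:**
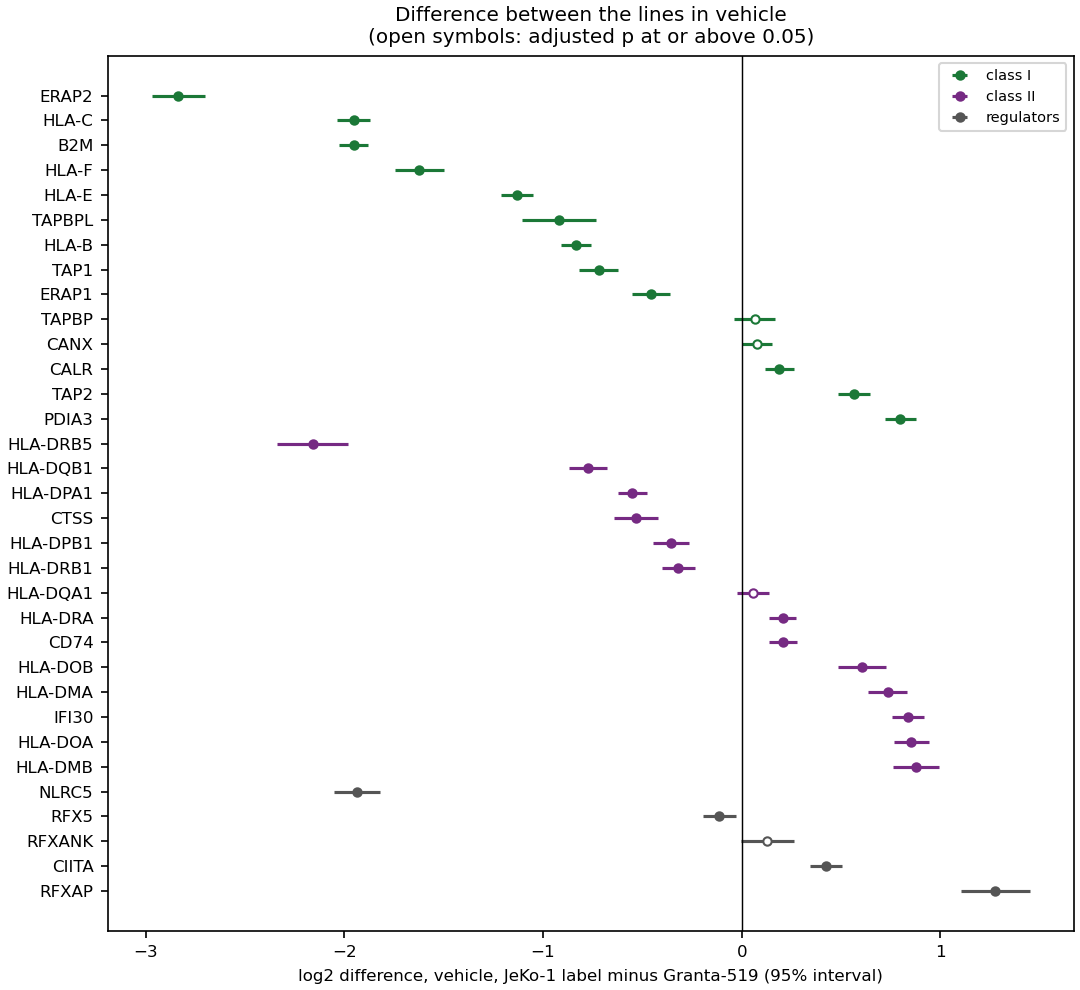
Log2 difference between the lines in vehicle for each of the 33 genes (x axis, JeKo-1 label minus Granta-519, with 95% intervals; genes sorted within class I, class II and regulators; open symbols did not pass the test). Most class I genes and NLRC5 lie to the left of 0, HLA-DRB5 lies far left among the class II genes, and the HLA-DM and HLA-DO genes and IFI30 lie to the right.

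Expressed per kilobase of the principal transcript, the order of levels in Granta-519 vehicle was CD74 (4778 ± 46.5 CPM per kilobase), B2M (2210.4 ± 35.0), HLA-B (1331 ± 36.6), HLA-DRA (1212 ± 15.1) and HLA-C (853 ± 13.7). In Granta-519 chidamide HLA-DRA (2090.2 ± 41.1) stood above HLA-B (1059 ± 59.3). In the vehicle libraries labelled JeKo-1 the order was CD74 (5520.4 ± 298), HLA-DRA (1398 ± 31.3), HLA-B (746 ± 22.0), IFI30 (647 ± 32.5) and B2M (571 ± 29.6). In chidamide HLA-B (789.9 ± 7.68) and B2M (783 ± 12.8) were within their spread of each other there. The lowest values were those of RFXAP in Granta-519, at 7.34 ± 0.831 in vehicle, and of ERAP2 under the JeKo-1 label, at 3.54 ± 0.434. CALR (467 ± 21.7) and HLA-DRB1 (458 ± 8.54) were neighbours in Granta-519 vehicle that lay within their spread.

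Another 60 genes of the pathway, in 7 lists, were followed beside these, and 55 of them passed the filter. Under the JeKo-1 label 30 rose and 17 fell, and in Granta-519 23 rose and 17 fell. Against 35.3% and 39.6% of all genes higher, the share that rose was larger under the JeKo-1 label and similar in Granta-519. Of all tested genes 31.1% were called lower under the JeKo-1 label and 31.3% in Granta-519. Among the 7668 genes of similar level to the main list, 50.9% and 47.4% were called lower and 27.6% and 30.4% higher. No list was tested against these shares. Of the class I-like molecules, 7 of 8 tested rose under the JeKo-1 label and 5 of 8 in Granta-519, and none fell. CD1A and CD1D, which present lipids to T cells, rose most of the 55. CD1A went from 7 to 150 counts over the 3 libraries under the JeKo-1 label (log2 change 4.14) and from 48 to 280 in Granta-519 (2.62). CD1D went from 9 to 168 counts (3.95) and from 161 to 1100 (2.85). CD1C of the same family is also one of the dendritic markers that were higher in the treated libraries, and why these marker genes rose was not tested. Of the immunoproteasome genes, which make class I peptides, 1 of 5 rose and 3 fell under the JeKo-1 label, and 4 of 5 fell in Granta-519. PSMB8 was the gene that rose, from 109.6 ± 6.79 to 158 ± 1.25 CPM, and in Granta-519 it fell from 228 ± 6.45 to 209.8 ± 13.2 CPM. Of the genes of glycoprotein folding in the endoplasmic reticulum, 1 of 6 rose and 4 fell in each line. PRKCSH, the beta subunit of glucosidase II, fell by 1.095 and 1.05 on the log2 scale, from 234 ± 16.2 to 109 ± 3.41 CPM and from 223 ± 9.87 to 108 ± 6.30 CPM.

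The endosomal list was mixed, with 3 of 8 genes higher and 4 lower under the JeKo-1 label and 4 higher and 2 lower in Granta-519. CTSD, the protease cathepsin D, fell by 1.48 and 1.01 on the log2 scale, from 72.8 ± 5.77 to 26.1 ± 1.1 CPM and from 54.5 ± 3.65 to 27.0 ± 2.60 CPM. Of 10 promoter factors and coactivators, 4 rose and 5 fell under the JeKo-1 label, and none rose and 6 fell in Granta-519. Falls were also common among all genes, by the shares given above, and these lists were not tested against them. Of 11 upstream signalling and lineage factors, 9 rose and 1 fell in each line. The one that fell in each was SPI1, the myeloid and B-cell factor PU.1, from 83.9 ± 5.80 to 47.4 ± 3.50 CPM and from 38.4 ± 1.24 to 22.4 ± 1.85 CPM. IRF8, a B-cell and myeloid factor that partners it, rose from 272 ± 4.37 to 439 ± 10.5 CPM and from 180.4 ± 5.60 to 305 ± 11.8 CPM. PSMB8, SPI1 and IRF8 were named after their values were seen. Of 7 tested HLA paralogs and pseudogenes, 5 rose under the JeKo-1 label and 4 in Granta-519, and reads of these copies may be shared with the chain genes.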

How the data were processed

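Polyadenylated RNA from 12 libraries in 4 groups of 3 was measured, and groups and replicate numbers came from the library titles. The authors deposited a table of counts, in whole numbers, by gene symbol. The submitters' processing notes name STAR and hg19; strand setting, counting tool, annotation and versions have not been given in the sources used here. A second deposited table is a length-scaled score, used as an alternative only (limma on log2(score + 0.1)); 6 unnamed columns were not used.

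The main test on counts was edgeR 4.0.16 (R 4.3.3), with a filterByExpr filter on groups, TMM scaling, a robust quasi-likelihood fit of 4 group means with 8 residual degrees of freedom, and Benjamini-Hochberg adjustment over 15087 genes at 0.05. CPM used TMM-scaled library sizes. The SE of a log2 change is its size over the square root of F. The alternatives used DESeq2 1.42.0, limma 3.58.1, other scalings, no filter, other sample sets and a replicate block. The test was tried on simulated data. Replicates differed beyond sampling noise (mean chi-square 1.63 to 5.63 per gene), and none were merged. Levels per kilobase used the median length of the principal transcripts of GENCODE v29, and CIITA was left out of that order. Promoters came from RefSeq (GRCh38.p14), and no RefSeq coordinate was joined to the hg19 counts. All 33 genes are named, and of the other pathway genes the 2 called genes with the largest rise and the 2 with the largest fall in each line; other names are marked or stand as members of a count. The genes and lists were chosen with earlier results of these data known.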

Additional observations from a re-analysis of the deposited data

Results flagged for a closer look

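For 22 genes the log2 change under chidamide differed between the lines by the test of the difference itself (adjusted p below 0.05, Benjamini-Hochberg, in the quasi-likelihood test of edgeR), where 39.5% of all tested genes did. The values below are the change under the JeKo-1 label minus that in Granta-519. Of the class I genes, the difference was positive for HLA-B (0.41), HLA-C (0.33), HLA-E (0.55), HLA-F (0.56), TAP1 (0.33) and TAPBPL (0.42). It was negative for TAP2 (-0.40), ERAP1 (-0.35), CALR (-0.13, which turned positive under library-size scaling), CANX (-0.23) and PDIA3 (-0.66). HLA-B rose under the JeKo-1 label and fell in Granta-519, and TAP2 did the reverse, although both calls under the JeKo-1 label were lost under some alternatives.

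Of the class II genes, the difference was positive for HLA-DRB5 (0.47) and CTSS (0.35). It was negative for HLA-DRA (-0.25), HLA-DPA1 (-0.37), HLA-DQB1 (-0.23), HLA-DMA (-0.58), HLA-DMB (-0.67), HLA-DOA (-0.21), CD74 (-0.33) and IFI30 (-0.21). For IFI30 this means a deeper fall under the JeKo-1 label, and for the other 7 a smaller rise. Among the regulators it was negative for CIITA (-0.35). The cause of these differences was not tested, and the doubt about the JeKo-1 label bears on each of them.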

How the results depend on the processing

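Of the 33 genes, 23 kept their call (higher, lower or not called) under all 19 alternatives in the comparison under the JeKo-1 label, 27 in Granta-519 and 27 between the lines in vehicle, and 20 under all 18 in the difference between the lines. Upper-quartile scaling moved the median log2 change of all genes under the JeKo-1 label by 0.15 and library-size scaling by 0.13, and library-size scaling moved that of the difference by 0.14. With these scalings 64.9% and 63.7% of all calls under the JeKo-1 label were higher, against 53.1% with TMM, and 70.0% of the calls in the difference, against 50.6% (72.9% without the count filter).

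Under upper-quartile and library-size scaling 8 class I genes were higher under the JeKo-1 label, against 5. With the length-scaled score 2 were lower, against 4. The regulators lower under that label numbered 1, against 2, with DESeq2, upper-quartile and library-size scaling, no filter and the score, and 1 to 2 without 1 library. In Granta-519 1 class II gene was lower, against 2, with upper-quartile scaling. In the difference 3 class I genes were lower, against 5, and 1 regulator was higher, against 0, with library-size scaling, no filter and the score, and 5, 4 and 5 class II genes were lower, against 8. Regulators lower between the lines numbered 1 to 2 without 1 library.

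With a call in the main test or the alternative, the direction turned for CALR in the difference (0.008, 0.032 and 0.014 with library-size scaling, no filter and the score), RFX5 in the difference (0.129, score), HLA-DQA1 between the lines (-0.086, score), and HLA-E in Granta-519 (-0.007, no filter). Other small changes crossed 0 as well, such as HLA-C (-0.099 to 0.07) and HLA-F (-0.045 to 0.159) under the JeKo-1 label, RFXAP in Granta-519 (-0.124 to 0.08) and HLA-DRB1 in the difference (-0.139 to 0.075). The sign also turned for the class I median in Granta-519 (-0.085 with no filter, -0.046 in the fit of 6 libraries) and the class II median between the lines (-0.006 with library-size scaling, -0.012 with the score). The cause was not tested. No pairing by replicate number was visible. Correlations of deviations ran from -0.0256 to 0.0346 between same-numbered libraries and from -0.0337 to 0.0351 between differently numbered ones. With the replicate block 1 class II gene was higher in the difference, against 2, since HLA-DRB5 was no longer called (adjusted p = 0.0594 in edgeR's quasi-likelihood test), and its rise in Granta-519 was not called either (0.109). Each of the 33 genes held at least 3806 counts over the 12 libraries.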

Other observations

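The second deposited table divides each count by a constant of its gene, and these constants were unusual for genes of the HLA region. Divided by the gene's length from start to end in RefSeq, introns included, the constant had a median ratio of 0.579 over 12212 genes. Over the 18 of the 33 genes that lie on chromosome 6 the median was 9.27, with a range of 0.433 to 22.6, and over the other 15 it was 0.671. A ratio of 5 or more was found for 3.9% of all genes. The exceptions were HLA-DQA1 (0.433) and HLA-DRB5 (0.453), and the other 16 had ratios of 3.41 or more, so that their levels read from that table would stand low against those of most genes, although fold changes within a gene are not touched by the constant. How the constants were made has not been stated in the sources used here.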
